A study of Mus musculus with 2 samples.

Results

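The genes described here are 35 genes of glucose use and of the response to low oxygen, chosen by name. They comprise 4 glucose and lactate carriers, 17 glycolytic enzymes, 3 regulators of glycolytic flux, 6 regulators of hypoxia-inducible factor (HIF) and 5 hypoxia targets, out of 20738 genes with a named probe. They were read by 61 probes on 2 one-colour (Cy3) mouse expression arrays, and all 35 lay above the detection floor on both arrays. One array held RNA of C57BL/6 CD4 T cells labelled Gfi1 wild type, and the other RNA of C57BL/6 cells labelled Gfi1 knock out. Gfi1 encodes a zinc-finger repressor of transcription, and the series asks, by its title, how it acts on the T helper 1 programme. Both cultures began as naive splenic CD4 T cells (CD44 low, CD62L high, CD25 negative). They were stimulated for 2 days through the T cell receptor β chain (3 µg/ml antibody) and CD28 (1 µg/ml antibody), with IL-2 (10 ng/ml) and with antibodies against IL-4 (5 µg/ml) and interferon-γ (5 µg/ml). The sources used here do not give the allele, the number and age of the animals or the oxygen tension of the cultures. With 1 array per genotype there is no spread between cultures, so no test was possible and no p-value is given. Differences are log2 values, knockout-labelled minus wild-type-labelled, after each array's 75th percentile was subtracted, and an SD is over different probes of a gene within these 2 arrays.

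Glycolysis turns glucose into pyruvate in the cytosol, and T cells raise glucose uptake and lactate output when they are activated, even with oxygen present. HIF is a dimer of an oxygen-regulated α subunit, such as that encoded by Hif1a, and the β subunit encoded by Arnt. With oxygen, the prolyl hydroxylases encoded by Egln1, Egln2 and Egln3 mark the α subunit for the ubiquitin ligase component encoded by Vhl. When oxygen is low the α subunit persists and the dimer activates genes of glucose use, blood vessel growth and mitophagy. This control acts largely on the protein, which was not measured here.

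The main glycolytic enzymes differed little between the arrays, while Egln3, Aldoc and Hif1a were more than 2-fold higher on the knockout-labelled array. Egln3 was 5.29-fold higher, Aldoc 2.37-fold and Hif1a 2.17-fold. Slc2a3, Bnip3 and Hk2 came next, at 1.87-fold, 1.81-fold and 1.58-fold higher, and Ldhb was the lowest of the 35, at 1.59-fold lower. At least 2-fold higher were 3 of 35 genes (8.57%), beside 3.62% of all 13411 detected genes, and 0 of 35 were at least 2-fold lower, beside 1.52% of all. A count of 3 is too small to set the genes apart from that background. The median difference of the 24 carriers, enzymes and flux regulators was 0.11, and that of the 11 HIF regulators and hypoxia targets 0.17, beside -0.05 over all detected genes. Within 0.2 of 0 lay 4 of the 11 HIF and hypoxia genes and 17 of the 24 others, beside 54.9% of all detected genes. Of the 24, 8 read 50000 units or over on their brighter array, where all genes varied little, and none of the 11 did.

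**Figure D1:**
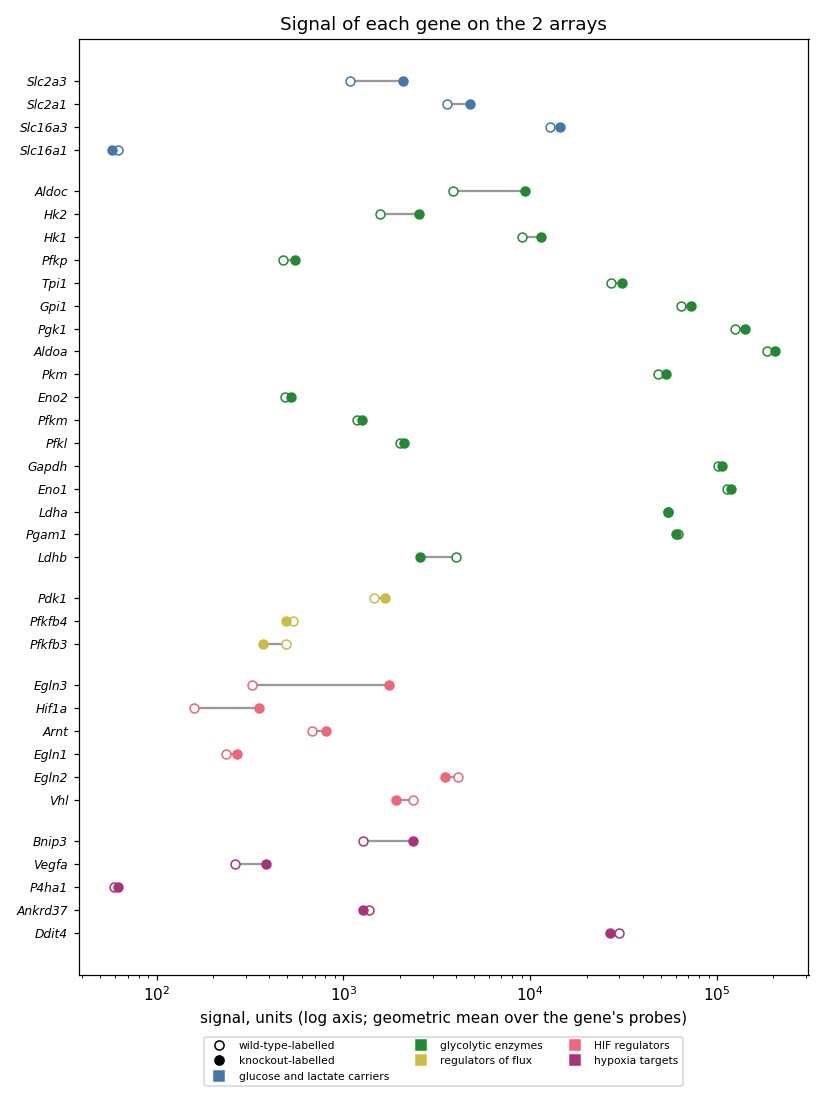
Signal of each of the 35 genes on the wild-type-labelled (open) and knockout-labelled (filled) array, in units on a log axis, as the geometric mean over the gene's detected probes. The points of most enzymes nearly coincide, while Egln3 read 325 and 1759 units and Aldoc 3850 and 9350 units. Levels of different genes come from different probes and are not comparable.

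The libraries are named by their labels because the targeted gene does not settle them. The single Gfi1 probe read 4260 units on the wild-type-labelled and 18100 units on the knockout-labelled array, and the sources used here do not say whether it lies inside the deleted part. Xist, transcribed from the inactive X of females, read 447 and 3.86 units, and the Y-linked Eif2s3y 2.91 and 3870 units, so sex-linked readings and genotype label differ together and cannot be told apart. Of the 35 genes only Pgk1 is X-linked.

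The glucose carriers were higher on the knockout-labelled array and the lactate carriers were nearly level. Slc2a3, which encodes the high-affinity neuronal-type carrier GLUT3, read 1080 units on the wild-type-labelled and 2070 units on the knockout-labelled array, a difference of 0.91 on 1 probe. Slc2a1, which encodes GLUT1, the carrier best known from activated T cells, read 3590 and 4760 units, a difference of 0.37 on 1 probe. Slc2a3 thus stood 0.53 above Slc2a1 in log2 difference. Slc16a3 encodes MCT4, the lactate exporter of glycolytic cells. Its 2 probes read 13200 and 12300 units on the first array and 14600 and 14200 units on the second, giving 0.14 ± 0.04 (SD, 2 probes). Slc16a1, which encodes the monocarboxylate carrier MCT1, was dim at 62.1 and 57.6 units (-0.14). At 50 to 500 units, probes printed on 10 spots had a median SD of the difference of 0.11, so Slc16a1 lay little beyond that spread.

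Hexokinases, which trap glucose as its phosphate, differed by isoform. Hk2, the inducible isoform, read 1570 and 2530 units, a difference of 0.66 on 1 probe. Hk1, the widely expressed isoform, stood at 0.30 ± 0.25 (SD, 3 probes), and its probes disagreed. Those reading 11900 and 689 units on the wild-type-labelled array gave 0.43 and 0.45, whereas the one reading 91000 units there gave 0.01. Hk1 was therefore level by its brightest probe and higher on the knockout-labelled array by its other probes.

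Phosphofructokinase, the committed step, showed small differences in its liver and muscle forms. Pfkl read 2000 and 2100 units (0.04). Pfkm was printed on 10 spots of 1 probe, which read 1120 to 1230 units with a median of 1170 on the wild-type-labelled array and 1170 to 1290 units with a median of 1275 on the other. The spots of the arrays overlapped, and the difference was 0.06 ± 0.06 (SD over 10 spots), with 8 of 10 spots above 0. The platelet form Pfkp depended on the probe, at 0.56 for the one reading 2950 and 4460 units and -0.20 for the one reading 77.1 and 68.6 units.

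Apart from phosphofructokinase, the main isoforms of the steps from glucose-6-phosphate isomerase to lactate dehydrogenase A were nearly level. All 9 genes (Gpi1, Aldoa, Tpi1, Gapdh, Pgk1, Pgam1, Eno1, Pkm and Ldha) lay between -0.06 and 0.16, with a median of 0.10. Gpi1, the isomerase, stood at 0.14 ± 0.03 over 3 probes and Tpi1, the triose phosphate isomerase, at 0.16 ± 0.01 over 2. Aldoa, the main aldolase, read 184000 and 205000 units (0.12), and Pgk1, which makes the first ATP of the pathway, 125000 and 141000 units (0.14). Gapdh had 8 probes from 26900 to 248000 units on the wild-type-labelled array, with differences from -0.07 to 0.11 and a mean of 0.04 ± 0.07. Pkm, the pyruvate kinase of T cells, read 48500 and 53000 units (0.10), and Eno1, the main enolase, 113000 and 118000 units (0.03). Pgam1, a mutase, read 61400 and 60400 units (-0.06), and Ldha, which makes lactate, stood at -0.03 ± 0.05 over 3 probes. Several of these genes, Gapdh above all, have near-identical pseudogenes whose signal the probes may share.

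Genes this bright varied little as a class. Of the 253 genes at 50000 units or over on their brighter array, the middle 90% lay between -0.21 and 0.14. Of these genes, 0% were at least 2-fold higher. The 8 enzymes in that class (the 9 above without Tpi1) lay between -0.06 and 0.14, with Gpi1 and Pgk1 just under the upper limit. Ldha and Gapdh changed sign under some settings, as did the median over all genes (0.01 with cyclic loess), so their direction is not given.

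Aldoc, Ldhb and Eno2, the minor isoforms among the 35 genes, are read by dimmer probes than their partners. Of these, Aldoc and Ldhb departed from their partners. Aldoc, the brain-type aldolase, read 3850 and 9350 units on 1 probe, a difference of 1.25 that placed it 334th highest of 13411 genes. Its difference exceeded that of Aldoa by 1.12. Among the 1835 genes of 5000 to 50000 units on their brighter array, 24 were at least 2-fold higher (1.31%). Aldoc was in this class only through its knockout-labelled reading. In the class of 500 to 5000 units, which holds its wild-type-labelled reading, the share was 2.34%. Ldhb, the dehydrogenase subunit that favours pyruvate, read 4020 and 2580 units on 1 probe (-0.67), 457th lowest, and lay 0.64 below Ldha. Eno2, the neuronal-type enolase, read 485 and 524 units (0.08) and its difference lay 0.05 above that of Eno1. Outside the 35 genes, Eno3, another enolase, read 15300 and 10500 units on 1 probe (-0.58), brighter than Aldoc, Ldhb and Eno2. Pgam2 and Ldhc, further isoforms of the mutase and the dehydrogenase, stood at 0.03 and 0.04 on dim probes.

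**Figure D2:**
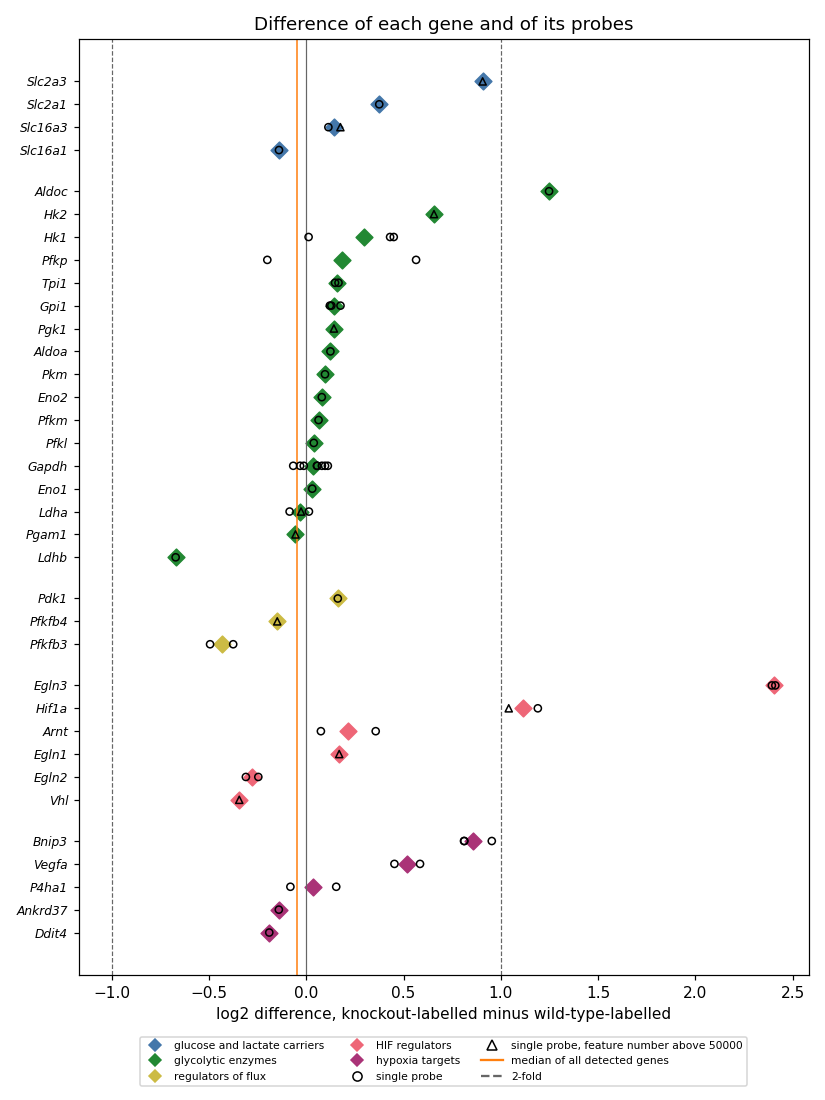
Log2 difference of each gene (diamonds) and of each of its detected probes (open symbols; triangles are spots with feature numbers above 50000), with dashed lines at 2-fold and an orange line at the median of all detected genes (-0.05). Egln3, Aldoc and Hif1a lie to the right of 2-fold, and the enzymes from Tpi1 to Pgam1 lie close to 0.

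Of the regulators of flux, Pfkfb3 was lower on the knockout-labelled array, while Pfkfb4 and Pdk1 lay within 0.2 of 0. Pfkfb3 encodes a bifunctional enzyme that makes fructose 2,6-bisphosphate, the activator of phosphofructokinase. Its 2 probes read 3170 and 75.9 units on the wild-type-labelled array and 2300 and 59.8 units on the other, giving -0.44 ± 0.08. Both probes were lower on the knockout-labelled array. Pfkfb4, its relative, read 537 and 495 units (-0.15) on the probe above the floor, while a different probe lay below the floor on both arrays. Pdk1, the kinase that holds pyruvate out of the mitochondrial citrate cycle, read 1460 and 1670 units (0.16).

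Among the HIF regulators, Egln3 stood apart from its paralogs. Egln3 encodes the prolyl hydroxylase PHD3, itself a HIF target in many cells. Its first probe read 239 units on the wild-type-labelled and 1300 units on the knockout-labelled array, and its second 443 and 2380 units. The probes gave 2.41 and 2.39, a mean of 2.40 ± 0.01, which was 75th highest of 13411 genes. Egln1, which encodes PHD2, the main oxygen-sensing hydroxylase, read 234 and 269 units (0.17). Egln2, which encodes PHD1, read 1590 and 10700 units on its 2 probes on the first array and 1370 and 8820 units on the second (-0.28 ± 0.05). The difference of Egln3 exceeded that of Egln1 by 2.23 and that of Egln2 by 2.68. The SDs of Egln3 and Egln2 describe probes on the same 2 arrays and not the spread between cultures, and Egln1 has 1 probe.

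Hif1a, the oxygen-regulated subunit, was read by a bright and a dim probe. The bright one read 1450 and 3050 units (1.04), on a spot with feature number 62202. The dim one read 17.4 and 40.6 units (1.19), where the floors were 14.2 and 14.6 units. The mean was 1.12 ± 0.11, past 2-fold in 12 of 13 alternative settings. Some of these settings could not alter the value. A lower or absent floor and detection on both arrays left it unchanged, since both probes lay above the floors. So did the median, which for 2 probes equals the mean. With 16 units added before the log, which shrinks dim differences, the Hif1a difference was 0.88. Arnt, its partner, stood at 0.22 ± 0.20 over 2 probes (0.07 and 0.36). Vhl, which recognises the hydroxylated subunit, read 2360 and 1900 units (-0.35) on 1 probe.

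Spots with feature numbers above 50000 varied more when dim. At signals under 500 units they differed 2-fold in 25.7% of cases, against 9.62% at lower numbers, and at 500 units and over in 2.45% against 1.91%. Among the 35 genes, 10 had a probe there, and for Slc2a3, Hk2, Pgk1, Pgam1, Pfkfb4, Egln1 and Vhl it was the sole detected one. Of these 7 only Egln1 was under 500 units on both arrays. The part of spot position in these values was not tested. Egln3, Aldoc and Bnip3 were read entirely on lower-numbered spots.

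Hypoxia targets split. Bnip3, a mitophagy receptor and classical HIF target, had 3 probes that read 6460, 4530 and 69.7 units on the wild-type-labelled array and 11600, 8970 and 125 units on the other. All 3 were higher, with a mean of 0.86 ± 0.08. Vegfa, the vascular growth factor, stood at 0.52 ± 0.09 over 2 probes, which read 150 and 459 units on the first array and 230 and 642 units on the second. P4ha1, a collagen prolyl hydroxylase subunit, was dim and near 0, at 0.04 ± 0.17 with its 2 probes on opposite sides. Ankrd37, an ankyrin-repeat gene, read 1370 and 1270 units (-0.14). Ddit4, which encodes the mTOR inhibitor REDD1, read 29800 and 26700 units (-0.19). At least 2-fold higher were 0 of the 5 targets, beside 3.62% of all detected genes. Within 0.2 of 0 lay 3 of the 5, beside 54.9% of all.

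**Figure D3:**
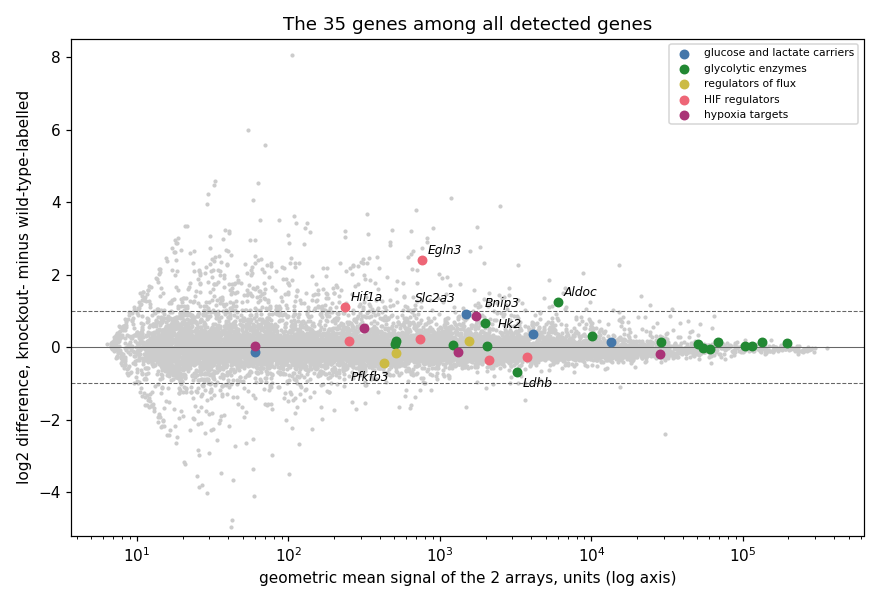
Log2 difference against the geometric mean signal of both arrays (log axis) for all 13411 detected genes (grey) and the 35 genes (coloured by role), with dashed lines at 2-fold. The bright enzymes lie in the narrow right-hand part of the cloud. Egln3 (2.40) and Aldoc (1.25) lie above the upper 2-fold line at middle signals, as do other genes.

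The sequences before the start sites were examined for the core of the HIF response element, ACGTG or GCGTG on either strand. Below are the 250 bases before the RefSeq start (GRCm38.p6), 5′ to 3′ on the gene's strand, with these motifs in capitals. Shown are the 3 genes past 2-fold, Bnip3, and as a contrast the enzyme genes Ldha and Pgk1, at -0.03 and 0.14. For Aldoc and Ldha the upstream of 2 listed starts is given. The Hif1a window lies inside the longer gene model of the same annotation.
Egln3 (chr12:54203875-54204124, minus strand): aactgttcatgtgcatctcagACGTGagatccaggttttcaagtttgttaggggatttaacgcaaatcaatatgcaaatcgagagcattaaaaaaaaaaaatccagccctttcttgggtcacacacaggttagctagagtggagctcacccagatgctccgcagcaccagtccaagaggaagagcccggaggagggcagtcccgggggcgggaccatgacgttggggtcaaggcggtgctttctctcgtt
Hif1a (chr12:73907617-73907866, plus strand): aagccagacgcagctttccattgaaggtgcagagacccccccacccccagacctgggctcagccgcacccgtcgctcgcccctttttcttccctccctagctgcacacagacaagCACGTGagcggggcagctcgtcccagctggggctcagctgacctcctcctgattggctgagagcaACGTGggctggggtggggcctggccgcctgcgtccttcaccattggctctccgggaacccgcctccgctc
Aldoc (chr11:78322823-78323072, plus strand): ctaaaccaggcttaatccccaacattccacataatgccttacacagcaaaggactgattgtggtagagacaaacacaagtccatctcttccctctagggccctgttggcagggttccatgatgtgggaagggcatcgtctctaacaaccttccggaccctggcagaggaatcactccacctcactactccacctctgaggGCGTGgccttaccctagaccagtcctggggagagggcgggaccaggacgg
Bnip3 (chr7:138909507-138909756, minus strand): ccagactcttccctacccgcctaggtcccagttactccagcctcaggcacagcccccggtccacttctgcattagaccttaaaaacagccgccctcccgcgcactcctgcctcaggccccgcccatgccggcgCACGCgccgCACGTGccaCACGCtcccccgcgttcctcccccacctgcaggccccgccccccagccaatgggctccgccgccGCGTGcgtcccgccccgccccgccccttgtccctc
Ldha (chr7:46845554-46845803, plus strand): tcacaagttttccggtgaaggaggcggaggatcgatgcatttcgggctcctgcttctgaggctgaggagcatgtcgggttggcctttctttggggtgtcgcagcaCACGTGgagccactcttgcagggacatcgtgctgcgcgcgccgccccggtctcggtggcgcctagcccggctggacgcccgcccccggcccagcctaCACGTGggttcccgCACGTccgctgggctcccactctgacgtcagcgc
Pgk1 (chrX:106186850-106187099, plus strand): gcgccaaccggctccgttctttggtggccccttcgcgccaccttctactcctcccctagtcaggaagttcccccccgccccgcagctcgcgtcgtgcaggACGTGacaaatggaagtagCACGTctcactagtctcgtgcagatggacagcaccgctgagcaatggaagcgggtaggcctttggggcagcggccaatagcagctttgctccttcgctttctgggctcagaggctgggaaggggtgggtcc

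The Egln3 window, with the largest difference, held 1, at 229 bases before the start, and that of Aldoc 1, at 50 bases. Hif1a had 3, of which 2 form the palindrome CACGTG, which is also the E-box of MYC family factors and counts on both strands. Bnip3 had 5, with 1 palindrome, while Ldha, at -0.03, also had 5, with 2 palindromes, and Pgk1 had 2 motifs. The windows at the second starts of Ldha and Aldoc, not shown, held 1 each. Of 49 windows of the 34 genes with an entry (Slc2a3 is named only), 39 held at least 1 of the motifs (79.6%), against 38.6% of all 32851 windows of this length in the table. Some windows of a gene overlap and share a motif. By gene, 30 of 34 had a window with a motif, against 41.5% of all genes. The windows also differed in composition. The median was 60.4% G and C and 14 CG pairs for the 49 windows, and 52.4% and 6 for all windows. Both motifs contain CG. AATC, the core of the GFI1 binding site, was present on either strand in 25 of 49 windows (51.0%), against 69.0% of all. By gene, the motif was present for 21 of 34, against 72.7% of all genes. AATC is mostly A and T, and the part of base composition in these shares was not tested. Such matches describe letters and not binding, and the rest of each gene was not searched.

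Other genes of carbohydrate metabolism showed no common direction. Of 40 listed, 33 were detected, 16 higher and 17 lower (5581 and 7830 of all detected genes), with a median of -0.01 (-0.05 over all). Only Pygl, a glycogen phosphorylase, was at least 2-fold higher, at 104 and 236 units (1.15). That is 3.03% of the detected genes of the list, beside 3.62% of all detected genes. Only Gpd1, a glycerol-phosphate dehydrogenase, was at least 2-fold lower, beside 1.52% of all detected genes. Gpd1 was lower by at least 2.33-fold, since its 33.3 units on the wild-type-labelled array compared with a signal below the floor on the other. Both lay on dim spots above feature number 50000. Pdp2, a phosphatase that activates pyruvate dehydrogenase, stood at -0.68 ± 0.77 over 2 probes, and Pdk2, a kinase that inactivates it, at -0.61 ± 0.18 over 2 dim probes.

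Other hypoxia and HIF-linked genes had a wider range. Of 39 listed, 34 were detected, 20 higher and 14 lower (5581 and 7830 of all detected genes), with a median of 0.08 (-0.05 over all). At least 2-fold higher were 3 (8.82%, beside 3.62% of all detected genes), and 0 were at least 2-fold lower (beside 1.52%), counts too small to set the list apart. Adm, which encodes the vasodilator peptide adrenomedullin, read 58.1 and 172 units (1.53). Vldlr, a lipoprotein receptor, read 117 and 337 units (1.49) on the probe above the floor. P4ha2, a collagen prolyl hydroxylase subunit, read 308 and 639 units (1.02) on a spot above feature number 50000. Bhlhe40, a transcription factor of activated T cells, read 1690 and 3340 units (0.95).

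**Figure D4:**
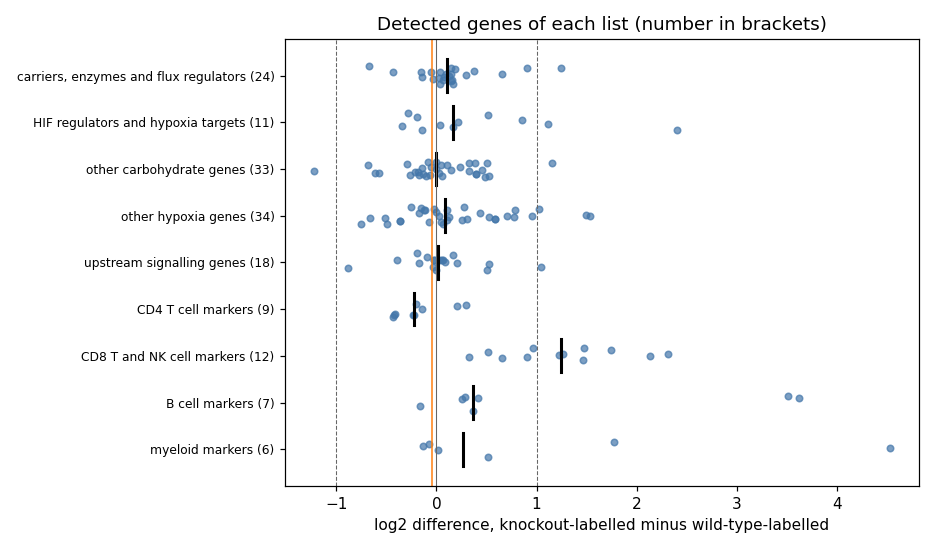
Log2 differences of the detected genes of each list (points) with the list's median (black bar), dashed lines at 2-fold and the median of all detected genes in orange. The carbohydrate, hypoxia and signalling lists have medians between -0.01 and 0.17, while the CD8 T and NK cell markers have a median of 1.24.

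Some genes listed as markers of other cells were higher on the knockout-labelled array, and others differed less or lay below the floor. Of the CD4 T cell markers, all 9 that have a probe lay above the floor on both arrays, among them Cd4 (2319 and 2146 units) and Cd3e (20900 and 15900 units). Their summed signal was 281889 units on the wild-type-labelled and 267379 units on the knockout-labelled array. Of 12 CD8 T and NK cell markers, 8 lay above the floor on the first array and 12 on the second, with sums of 2663 and 6510 units. Cd8a, Klrk1, Klrb1c and Ncr1 were below the floor on the wild-type-labelled array. On the other they read 34.9, 18.2, 20.8 and 28.3 units, where the floor was 14.6 units. All 12 were higher, and most of both sums came from Gzma (1160 and 2770 units), Eomes (649 and 1843) and Prf1 (504 and 814). Of 8 B cell markers, 6 and 7 lay above the floor, with sums of 403 and 973 units. Ms4a1 and Blnk stood at 3.52 and 3.62, while the other 5 detected B cell markers lay between -0.17 and 0.41 and the list's median was 0.37. Of 10 myeloid markers, 4 and 5 lay above the floor, with sums of 383 and 563 units, Csf1r at 0.01 and Lyz2 below the floor on both arrays. Mpeg1, below the floor on the wild-type-labelled array, read 335 units on the other, and Tyrobp read 53.1 and 186 units (1.78). The part of other cells, if any were present, in the differences of Egln3, Aldoc, Hif1a, Slc2a3, Bnip3 and Hk2 was not tested. A change in cell numbers and a change in RNA per cell cannot be told apart in such samples.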

How the data were processed

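RNA (100 ng per array, per the labels' protocols) was amplified, labelled with Cy3 and hybridised to 1 array per genotype. Per the submitters' processing notes, Agilent Feature Extraction 11.5.1.1 was used. The deposited per-array files give the authors' intensity per spot (59305 spots, 55681 probes) on a linear scale; the sources used here do not state its background correction. A deposited table of processed intensity by the authors, close to the same values times 2.27 (wild type) or 2.26 (knockout), served as an alternative. It is linear and not centred, with column medians of 34.4 and 34.8; the choice of the constants stays unknown.

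Groups came from the genotype label. Spots of a probe were averaged on the log2 scale, then centred on the 75th percentile over probes (263 and 269 units). The floor was the array's median probe (14.2 and 14.6 units), a convention in the absence of flags; a side below it was set to it, and probes below it on both arrays were left out. Remaining probes were averaged per gene. Platform annotation named 31465 spots with 1 symbol, 0 with several and 27840 with none. Symbols were updated by accession (29036 spots), symbol (2075) or synonym (349) in a RefSeq table of GRCm38.p6, and 5 kept their name; among the 35 genes this altered 1 spot, Pkm. The array files name no build.

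Genes were counted at 2-fold, with no test, because each group has 1 array; this number limits the precision. The members and gene lists were chosen with earlier results of these data known. Named were all 35 genes, of the other lists those past 2-fold and the 4 largest differences, Gfi1, and defining markers. Xist, Eif2s3y, Klrk1, Klrb1c, Blnk, Mpeg1, Tyrobp, Gzma, Eomes, Prf1, Eno3, Pgam2 and Ldhc were added after their values were seen. The alternatives were scaling (median, quantile, cyclic loess with span 0.3, none), the authors' table, floors at the 25th or 75th percentile or none, probes detected on both arrays, the brightest or median probe, an offset of 16 units, omission of spots above feature number 50000, and thresholds of 1.5-fold and 3-fold. The steps were tested on simulated data. Computation used Python 3.11.15 with matplotlib 3.10.9, statsmodels 0.14.6, pandas 2.3.3 and numpy 2.4.6.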

Additional observations from a re-analysis of the deposited data

How the results depend on the processing

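No paired analysis was possible because each genotype has 1 array, and for the same reason no array could be left out. Of 445 values of single genes under the alternatives, 436 stayed on their side of 2-fold and within 0.10 (the median SD between probes of a gene), 8 moved further without crossing it, and 1 crossed it, Hif1a at 0.88 with the offset of 16 units. Some of the 436 could not move, because the floor or probe setting left the gene's probes and their average unchanged. The count of 3 higher genes became 6 at 1.5-fold and 1 at 3-fold, and that of 0 lower genes became 1 at 1.5-fold. The medians of the carriers and enzymes, of the HIF regulators and hypoxia targets, and of the other carbohydrate, other hypoxia and upstream signalling lists moved by less than 0.10; those of the marker lists were not rerun. Among all detected genes, the 485 higher became 980 with the floor at the 25th percentile, 136 at the 75th, 1004 without a floor, 1029 at 1.5-fold and 215 at 3-fold. The 204 lower became 634, 20, 638, 570 and 87 in the same settings, 125 with probes detected on both arrays, 117 with the offset and 105 without spots above 50000. Dim probes limit P4ha1, Slc16a1 and the second probe of Hif1a.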

Other observations

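Genes that act on glucose use in T cells from above were mostly level. Of 18 detected genes of the mTOR, AKT, AMPK and transcription factor inputs, 9 were higher and 9 lower, with a median of 0.01. Over all detected genes 5581 were higher and 7830 lower, with a median of -0.05. Beside 54.9% of all detected genes, 12 of the 18 lay within 0.2 of 0. Irf4, a transcription factor of T cell receptor signalling strength, was the only one past 2-fold, at 4650 and 9780 units (1.04). That is 5.56% of the list, beside 3.62% of all detected genes higher. Myc, a driver of glycolytic genes in activated T cells, read 4335 and 6279 units (0.50), and Stat3, a cytokine-activated factor, stood at 0.52 ± 0.04 over 2 probes. Tsc2, an inhibitor of mTOR, stood at -0.88 on a dim spot above feature number 50000 that read 36.9 and 20.5 units.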
